A study of Homo sapiens with 17 samples.

Results

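Immediate early genes are the genes that a cell transcribes first, within minutes of a growth factor or a stress, through factors that are already present and need no new protein. Their messenger RNAs are mostly short-lived, so that their level follows transcription closely, and many of them encode transcription factors that set off the next wave of genes. In the intestinal epithelium they answer to mitogens and wounding. The genes described here are 34 immediate early genes, taken by symbol from a list, out of 19141 genes in the count table. All 34 were found in the table and all 34 passed the filter on low counts. They fall into the AP-1 subunits FOS, FOSB, FOSL1, FOSL2, JUN, JUNB and JUND, the EGR factors EGR1, EGR2 and EGR3, the NR4A receptors NR4A1, NR4A2 and NR4A3, the Krüppel-like factors KLF2, KLF4, KLF6 and KLF10, the response factor SRF, the IER genes IER2, IER3 and IER5, the RNA-binding proteins ZFP36, ZFP36L1 and ZFP36L2, the antiproliferative gene BTG2, the phosphatases DUSP1 and DUSP2, the secreted CCN1 and CCN2, the helix-loop-helix proteins ID1, ID2, ID3 and HES1, and ARC.

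The cells were YB5, a derivative of the SW48 colon cancer cell line with a single inserted GFP gene behind a methylated and silent CMV promoter, which all groups share. They received the adenosine analog toyocamycin at 250 nM or its vehicle DMSO, and polyA RNA was sequenced after 2, 10, 24, 48 and 72 h, where 72 h is the time in the labels and 96 h the time in the paper. Of 17 libraries, 8 came from DMSO and 9 from toyocamycin, with 2 per arm at 2 h, 1 per arm at 24 and 48 h, 3 per arm at 72 h, and 1 DMSO and 2 toyocamycin libraries at 10 h. Replicate 2 of each arm at 2 and at 10 h formed batch 2 and the other 13 libraries batch 1. Counts per library ranged from 8735465, in replicate 2 of toyocamycin at 10 h, to 22121364. Of the 11 epithelial and colon markers, EPCAM, CDH1, KRT8, KRT18 and CDX2 were present in every library. CDX1 stayed at or below 10 counts and KRT20 at or below 7. VIL1 stayed at or below 94, with 1, 6 and 2 counts on toyocamycin at 72 h. KRT19, CLDN3 and CLDN4 reached 5397, 794 and 6754 counts at most. The protocol speaks of biological triplicates, and nothing further tells how the replicate cultures were separated, so the p-values measure the spread between these libraries.

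Levels are CPM, a gene's counts relative to all counts of its library and scaled by the TMM method, fold changes are log2 ratios of toyocamycin to DMSO with their standard error (SE), and a gene was said to rise or fall at a Benjamini-Hochberg adjusted p under 0.1 over all genes tested. TMM takes most genes as unchanged, so a value says how a gene moved against the rest of its library. In bulk RNA, fewer cells that express a gene and less of its RNA per cell cannot be told apart. The rule behind the list speaks of transcripts that fall first and return late, and the libraries showed this order for a minority of the 34 genes.

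After 2 h, 11 of the 34 genes fell and 1 rose. The share that fell, 32.4%, stood beside 8.42% of all 14491 genes tested, and the share that rose, 2.94%, beside 0.518%. Those that fell were the AP-1 subunits FOS, FOSB, FOSL2 and JUN, EGR3, NR4A1 and NR4A3, KLF4, BTG2, DUSP1 and ARC, by 0.72 to 2.37 on the log2 scale. IER3 rose by 1.09. At an unadjusted p under 0.05 the numbers were 16 lower and 3 higher, and the share of all genes at that threshold was not counted. The median of the 34 genes was -0.49, and that of all genes 0.02. Within the pairs of replicate 1, both of batch 1, and of replicate 2, both of batch 2, the medians were -0.43 and -0.47, and 21 genes were lower and 6 higher in both pairs, as for 29.1% and 36.0% of all genes. For 16 genes both toyocamycin libraries lay below both DMSO libraries, which was true of 20.3% of all genes, and for 4 genes, ID2, IER3, KLF6 and KLF10, they lay above, as for 16.7% of all genes. With the pairs as a block, 15 genes fell and 2 rose, 44.1% and 5.88% beside 9.8% and 0.842% of all genes.

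These calls at 2 h rested on few libraries. Replicates 1 and 2 were also batches 1 and 2, so a fit without a library is unbalanced by batch and mixes drug with batch. Replicate 1 of DMSO was higher than replicate 2 for 31 of the 34 genes, as for 45.3% of all genes. Without it the median of the 34 genes became 0.02, and that of all genes 0. Without replicate 2 of toyocamycin the ratios of FOSB, FOSL2 and JUN were nearer to no change (-0.54, -0.59 and -0.64). Without replicate 2 of DMSO those of FOSL1, IER5, ZFP36L2 and DUSP2 were further below the vehicle (-0.75, -0.95, -1.06 and -1.09). The ratio of IER3 became 0.59 without replicate 2 of DMSO and 0.79 without replicate 1 of toyocamycin. With the libraries scaled on the mitochondrially encoded genes, 3 genes fell, BTG2, DUSP1 and NR4A3, or 8.82% beside 0.6% of all genes. The mitochondrially encoded genes held 1.42% and 3.47% of the counts in replicates 1 and 2 of DMSO. In those of toyocamycin they held 1.77% and 2.65%, so that this scale itself differed between replicates. With the libraries of 2 h alone 8 fell, without FOSB, FOSL2 and JUN, or 23.5% beside 6.23% of all genes. In the fit of all 17 libraries 5 fell, or 14.7% beside 4.91%.

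After 10 h more of the genes were higher than lower. In the fit of all 17 libraries, 24 of the 34 genes were higher on toyocamycin, or 70.6% beside 20.4% of the 16521 genes tested, and 2 were lower, FOS and DUSP1, or 5.88% beside 24.4%. The median was 1.53, and 0.42 for all genes. Of the 11 genes that had fallen at 2 h, 6 were now raised (ARC, EGR3, FOSL2, JUN, NR4A1 and NR4A3) and 2 were still lowered. The other 3 (BTG2, FOSB and KLF4) did not pass the test. How all the genes that fell at 2 h stood at 10 h was not counted. The 2 toyocamycin libraries differed. Every one of the 34 genes was higher in replicate 1, from batch 1, than in replicate 2, against 49.7% of the genes of the 14-library fit. Set against the DMSO library, which belongs to batch 2, replicate 1 was higher for 31 genes with a median of 2.20, beside 0 for all genes. Replicate 2, the comparison within batch 2, was higher for 22 and lower for 12 with a median of 0.51, beside 0.29 for all genes. Without replicate 1, where the lone libraries are assumed to vary like those of the other groups, the test found 15 genes higher, a share of 44.1% near the 39.1% of all genes, and 6 lower, 17.6% beside 27.0%. The 9 rises that it no longer called were those of CCN2, EGR1, FOSL2, HES1, ID1, IER5, JUN, SRF and ZFP36L2, and FOSB, DUSP2, KLF2 and ZFP36 joined the genes that fell. Without replicate 2 it found 31 higher and 2 lower, 91.2% and 5.88% beside 24.0% and 28%. With batch as a term 21 were higher and 3 lower, 61.8% and 8.82% beside 37.8% and 27.2%, the third being FOSB (-1.09, adjusted p = 0.0125). Replicate 2 had 8735465 counts against 16652025, 6.55% of its counts on mitochondrially encoded genes against 3.30%, and 32.5 CPM summed over 12 markers of blood, fibroblasts, endothelium and liver against 4.28. Of the 10 epithelial and colon markers tested at 10 h, 7 rose and 0 fell, with a summed level of 4400.0 to 5228 CPM on toyocamycin against 1804 on DMSO. Their part in the result was not tested. On the mitochondrial scale 8 of the 34 genes were higher and 3 lower, beside 503 and 5362 of all genes in place of 3375 and 4033.

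At 24 and 48 h each arm had 1 library, so the values carry no test. At 24 h 25 genes were more than 2-fold higher and 5 more than 2-fold lower (FOS, FOSB, ID1, ID3 and ZFP36), beside 29.7% and 27.8% of all genes, with a median of 1.90. At 48 h 23 were more than 2-fold higher and 4 more than 2-fold lower (ID1, ID3, KLF2 and ZFP36), beside 38.1% and 29.9%, with a median of 2.61. The median of all genes was 0 at 24 h and 0.16 at 48 h. The DMSO library of 24 h was itself high in these genes. It was the highest of the 8 DMSO libraries for 20 of the 34 genes, as for 10.3% of all genes, and it held 983 CPM of FOS against 187 to 423 CPM in the other DMSO libraries. The negative ratios of FOS, ID1, ID3 and ZFP36 at 24 h were taken against that library. With the mitochondrially encoded genes as the scale, the median of the 34 genes at 24 h was -0.38, with 7 genes more than 2-fold higher and 10 lower. By library size alone 16 were higher and 8 lower. The share of all genes at 24 h was not counted on these scales, so these values do not show how the 34 genes moved against the rest. At 72 h the median of all genes was 0.18 with TMM, -0.89 on the mitochondrial scale and -0.42 by library size alone.

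At 72 h, 30 of the 34 genes rose, 3 fell (ID1, ID3 and KLF2) and IER5 did not pass. The share that rose, 88.2%, stood beside 47.0% of all genes, and the share that fell, 8.82%, beside 41.9%. The median was 2.92 against 0.18 for all genes, and 2.65, 3.04 and 3.04 between libraries with the same replicate number. All 3 toyocamycin libraries lay above all 3 DMSO libraries for 30 genes and below them for 3, as for 45.8% and 41.8% of all genes. ZFP36 was the gene whose arms overlapped. With the mitochondrially encoded genes as the scale 23 of the 34 genes rose and 4 fell, IER5 among them, beside 4204 and 7362 of all genes in place of 6804 and 6065. The 7 rises that were then lost were those of DUSP1, DUSP2, FOS, ID2, KLF4, SRF and ZFP36, and those of DUSP1, SRF and ZFP36 were also lost by library size alone. For 28 of the 34 genes, the 3 toyocamycin libraries lay above all 8 DMSO libraries of every time point, as for 41.3% of all genes. All 11 genes that had fallen at 2 h rose at 72 h, as did 19 of the other 23. How many of all the genes that fell at 2 h rose at 72 h was not counted, so the 11 cannot be set against them.

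The 34 genes took up 0.417% to 1.34% of all counts in the DMSO libraries and 7.25%, 8.70% and 8.12% in the toyocamycin libraries of 72 h. NR4A1, CCN1, IER3, EGR1 and ARC together held 5.75% of the counts at 72 h on average. On the scale of CPM per kilobase of exon, the levels at 72 h on toyocamycin were 11190 for IER3, 6286 for CCN1, 3515 for NR4A1, 2338 for JUNB, 2184 for ARC and 2159 for EGR1. In the DMSO libraries of 72 h the same scale gave 352 for IER3, 51.7 for CCN1, 16.9 for NR4A1, 230.3 for JUNB, 4.08 for ARC and 206 for EGR1. In the same toyocamycin libraries 8 of the 9 epithelial markers tested fell and 1 rose, 88.9% and 11.1% beside 41.9% and 47.0% of all genes, with a summed level of 560.0 to 589 CPM against 6254 to 7270 on DMSO, KRT20 and CDX1 being at 0. Of the 8 markers of other cells that were tested, out of 12, 6 rose and 0 fell, 75% beside 47.0% of all genes, with a summed level of 20.5 to 36.7 CPM against 0.743 to 1.83, and APOA1 was at 0. Their part in the result was not tested.

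**Figure D1:**
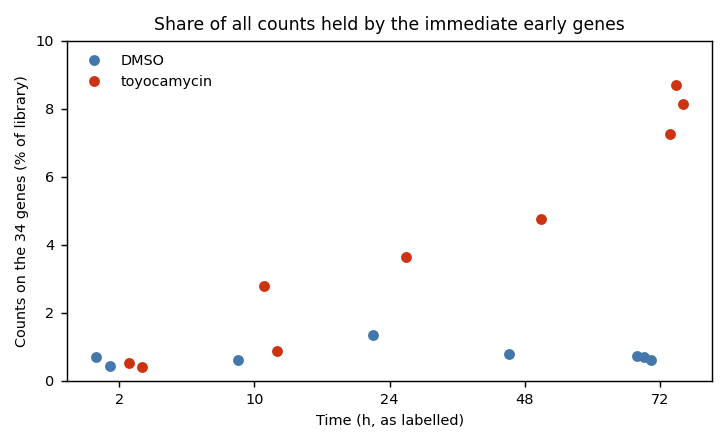
The share of each library's counts on the 34 immediate early genes (y axis, percent, from 0) is plotted by time (x axis, h), with 1 point per library, DMSO in blue and toyocamycin in red. The DMSO libraries stay between 0.417% and 1.34%, and the toyocamycin libraries of 72 h lie between 7.25% and 8.70%.

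The change of the effect between 2 and 72 h was tested in the same fit. It was positive for 30 of the 34 genes, or 88.2% beside 38.0% of all genes, and negative for 3 (ID1, ID3 and KLF2), or 8.82% beside 38.1%. ZFP36 did not pass. The median difference was 3.53, and 0.24 for all genes. In the vehicle alone, comparing DMSO at 72 h with DMSO at 2 h, 14 genes rose and 8 fell, beside 10.2% and 11.4% of all genes, with a median of 0.25 against -0.03. The comparisons at 2 and 72 h, the difference and this one share their DMSO libraries. The DMSO comparison also crosses batches. With batch as a term 7 genes rose and 11 fell, 20.6% and 32.4% beside 6.6% and 7.47% of all genes. The median then became -0.07, against 0.04 for all genes. In DMSO, ID1 rose by 1.93, FOSL1 by 1.75, CCN1 by 1.61 and ZFP36 by 1.52, whereas FOSB fell by 2.19, JUN by 1.85, NR4A3 by 1.54 and ARC by 1.32.

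**Figure D2:**
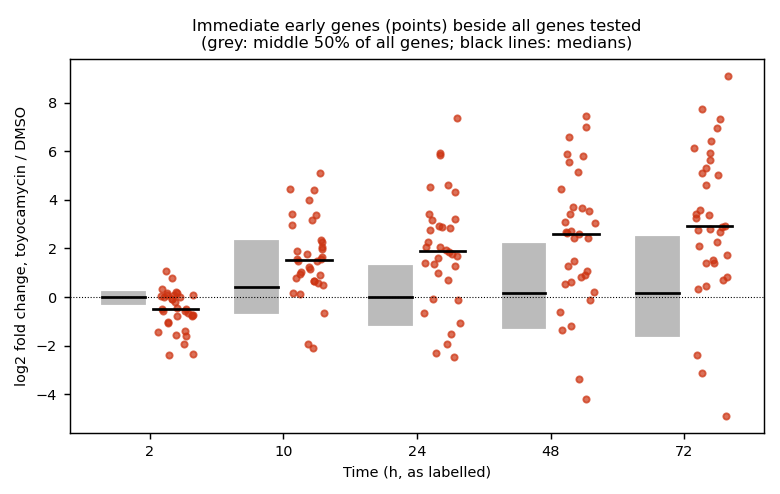
Log2 fold changes of toyocamycin against DMSO (y axis) are plotted by time (x axis, h), with each of the 34 genes as a red point beside a grey box for the middle 50% of all genes tested, and black lines for medians. The medians of the 34 genes run from -0.49 at 2 h through 1.53, 1.90 and 2.61 to 2.92 at 72 h, while those of all genes stay between 0 and 0.42.

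**Figure D3:**
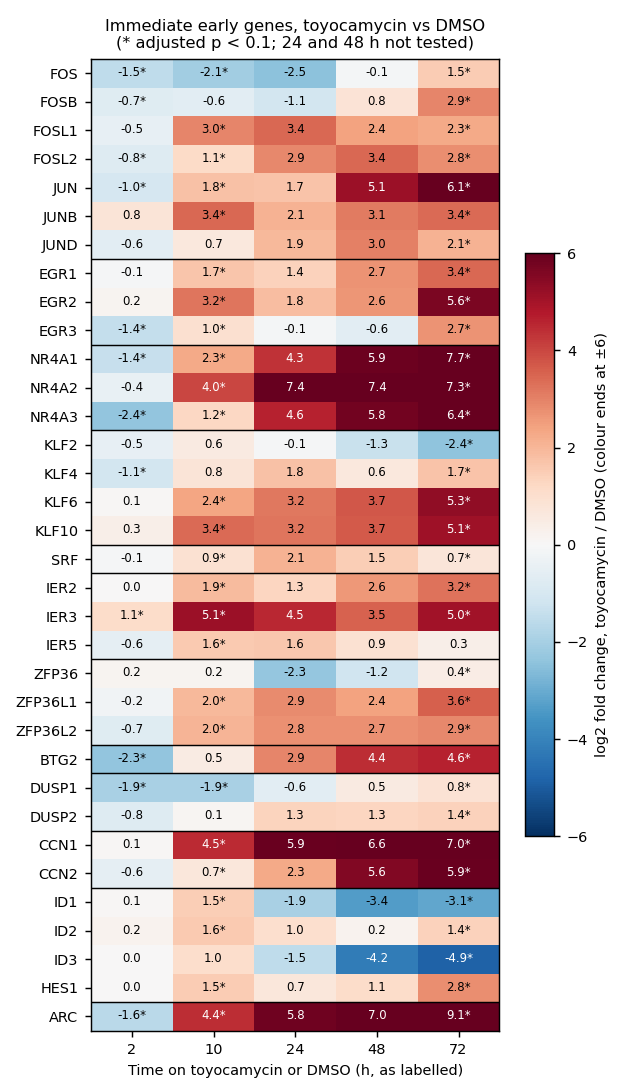
Each row is an immediate early gene, ordered by role with lines between roles, and each column a time point (h, as labelled). The colour and the printed number give the log2 fold change of toyocamycin against DMSO, with a star at an adjusted p under 0.1 and no test at 24 and 48 h. Blue cells are most frequent at 2 h, where 11 genes carry a star for a fall, and 30 genes carry a star for a rise at 72 h.

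The sequences below show the features by which immediate early genes are known, a CArG box bound by SRF, a CRE bound by CREB factors, a TATA box, and the AU-rich nonamer of unstable messenger RNAs. They are shown for 4 of the genes that carried a promoter motif and for the 8 that carried the nonamer, with the letters of the motif in capitals. The promoters are RefSeq sequences of the build GRCh38.p14, read from 250 bases before the start to the base before it, 5′ to 3′ on the strand of the gene. RefSeq gave 26 of the 34 genes, and ARC, CCN1, EGR3, FOSL1, IER3, KLF10, NR4A2 and ZFP36L2 were not matched. The 4 lines are EGR1 and SRF, each with a pair of CArG boxes, then DUSP1 with a CRE and a TATA box, and FOS with a TATA box.
EGR1, chr5:138465229-138465478, plus strand: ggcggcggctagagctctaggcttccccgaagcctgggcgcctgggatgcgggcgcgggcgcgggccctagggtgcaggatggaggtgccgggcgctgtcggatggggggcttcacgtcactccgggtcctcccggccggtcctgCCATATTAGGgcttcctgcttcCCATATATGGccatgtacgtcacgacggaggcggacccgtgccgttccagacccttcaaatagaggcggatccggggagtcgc
SRF, chr6:43171019-43171268, plus strand: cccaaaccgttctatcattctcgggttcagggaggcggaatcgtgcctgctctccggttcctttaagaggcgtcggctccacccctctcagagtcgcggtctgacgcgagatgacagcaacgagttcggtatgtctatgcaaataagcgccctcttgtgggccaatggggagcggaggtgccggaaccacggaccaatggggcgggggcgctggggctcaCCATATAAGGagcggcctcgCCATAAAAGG
DUSP1, chr5:172771196-172771445, minus strand: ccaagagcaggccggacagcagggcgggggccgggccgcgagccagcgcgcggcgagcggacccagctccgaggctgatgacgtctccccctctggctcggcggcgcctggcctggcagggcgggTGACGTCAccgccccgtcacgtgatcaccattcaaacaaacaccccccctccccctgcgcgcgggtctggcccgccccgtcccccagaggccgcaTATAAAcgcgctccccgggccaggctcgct
FOS, chr14:75278578-75278827, plus strand: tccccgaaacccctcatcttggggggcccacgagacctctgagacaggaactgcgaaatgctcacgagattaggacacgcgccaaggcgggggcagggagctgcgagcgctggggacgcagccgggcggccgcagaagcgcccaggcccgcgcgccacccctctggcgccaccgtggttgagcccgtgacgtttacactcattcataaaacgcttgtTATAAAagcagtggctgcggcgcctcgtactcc
Both strands of the 250 bases were searched. A CArG box, which is CC and GG around a run of A and T, was found in 2 of 26 promoters, EGR1 and SRF (7.69%, against 1.11% of the promoters of 11589 tested genes). The CRE TGACGTCA was also found in 2, DUSP1 and JUND (7.69% against 2.74%). TATAAA was found in 6, CCN2, DUSP1, FOS, FOSB, ID1 and JUNB (23.1% against 6.34%). The AP-1 site, TGACTCA or TGAGTCA, was found in 0 of 26 against 2.74%. These motifs did not overlap one another in the promoters shown, and a match is a description of letters in this window. EGR1 and SRF, which share the CArG boxes, had fold changes of -0.08 and -0.08 at 2 h and of 3.42 and 0.72 at 72 h. DUSP1 and FOS, which share the TATA box, both fell at 2 h and at 10 h. Of the other genes with TATAAA, FOSB fell at 2 h and CCN2, ID1 and JUNB did not pass.

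In the 3′UTRs of the MANE Select transcripts (GENCODE 44, GRCh38), the nonamer TTATTTATT was found in 8 of 34 genes, or 23.5%, against 8.95% of 14233 tested genes and 14.2% of the 1211 that fell at 2 h. The first match in each, with 10 bases on either side, reads on the strand of the gene:
DUSP1, chr5:172768643-172768671, minus strand: gggctggtccTTATTTATTtaacttcacc
FOS, chr14:75282060-75282088, plus strand: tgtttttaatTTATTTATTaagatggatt
FOSL2, chr2:28416355-28416383, plus strand: atttattttaTTATTTATTttaaatgttt
IER5, chr1:181092443-181092471, plus strand: gtgtcttcctTTATTTATTtatttattta
SRF, chr6:43179224-43179252, plus strand: atggcaccacTTATTTATTgttgcctttt
ZFP36, chr19:39409196-39409224, plus strand: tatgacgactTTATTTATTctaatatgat
ZFP36L1, chr14:68788077-68788105, minus strand: aactgttggaTTATTTATTttagaaattc
ZFP36L2, chr2:43223448-43223476, minus strand: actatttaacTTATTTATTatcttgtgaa
Of these 8 genes, DUSP1, FOS and FOSL2 fell at 2 h, 3 of the 11 that fell, and IER5, SRF, ZFP36, ZFP36L1 and ZFP36L2 did not pass, 5 of the other 23. The pentamer ATTTA occurred at a median of 2.37 per kilobase in the 34 genes, 2.22 in the 11 that fell and 2.42 in the other 23, against 1.57 over all genes and 2.23 over all genes that fell at 2 h. BTG2 and NR4A3, with the largest falls among the 34, had 0.924 and 3.31 pentamers per kilobase and no nonamer, and ARC had no pentamer.

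The AP-1 transcription factor is a dimer of a FOS and a JUN protein. Of its 7 subunits, 4 fell at 2 h and all 7 rose at 72 h. FOS, the founding immediate early gene (chr14:75278826-75282230, GRCh38, GENCODE 44), stood at 345 and 211 CPM in the DMSO libraries of 2 h and at 107 and 83.6 on toyocamycin. It was 423 on DMSO against 154 and 45.0 at 10 h, 983 against 175 at 24 h, and 288 against 265 at 48 h. At 72 h it was 251, 243 and 187 on DMSO and 577, 672 and 659.8 on toyocamycin. FOS was thus below the vehicle in every library up to 48 h and above it in all 3 at 72 h. It fell by 1.54 ± 0.22 (SE, n = 2 per arm, adjusted p = 0.000419) and by 2.08 ± 0.46 at 10 h (adjusted p = 0.00218), and rose by 1.52 ± 0.18 at 72 h (n = 3 per arm, adjusted p = 1.21e-06). Under the mitochondrial scaling its rise at 72 h did not pass (0.40, adjusted p = 0.407).

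FOSB (chr19:45467995-45475179), a close relative of FOS, went from 98.2 and 94.4 CPM on DMSO to 66.4 and 50.7 at 2 h. It was 51.3 against 49.5 and 15.5 at 10 h, 78.0 against 36.5 at 24 h and 33.3 against 57.5 at 48 h. By 72 h the DMSO libraries had dropped to 20.8, 21.5 and 20.9 and the toyocamycin libraries held 137, 177 and 161. FOSB rose by 2.94 ± 0.15 at 72 h (adjusted p = 4.21e-11) against a vehicle that had fallen since 2 h, its mean on toyocamycin at 72 h being 158 CPM and that on DMSO at 2 h 96.3 CPM. The fall at 2 h was 0.72 ± 0.17 (adjusted p = 0.0136), which was lost without replicate 2 of toyocamycin (-0.54, adjusted p = 0.181) and with the libraries of 2 h alone (adjusted p = 0.112). FOSL1 and FOSL2 encode the Fra proteins, which are induced later than FOS in serum-stimulated cells. FOSL1 (chr11:65892049-65900573) had 94.2 and 65.3 CPM on DMSO and 62.6 and 49.8 on toyocamycin at 2 h. That ratio of -0.51 did not pass (adjusted p = 0.171) but did with the replicate block (-0.49, adjusted p = 0.0544). It was 25.9 against 299 and 102 at 10 h, 52.1 against 557 at 24 h, 176 against 927 at 48 h, and 272, 293 and 243 against 1129, 1333 and 1315 at 72 h. FOSL1 rose by 2.95 ± 0.50 at 10 h and by 2.26 ± 0.16 at 72 h (adjusted p = 0.000269 and 2.61e-09). FOSL2 (chr2:28392448-28417317) fell at 2 h from 74.9 and 58.2 to 44.3 and 34.2 CPM, by 0.76 ± 0.18 (adjusted p = 0.0172), a call that was lost without replicate 1 of DMSO or replicate 2 of toyocamycin. It then held 91.9 against 285 and 119 CPM at 10 h, 121 against 885 at 24 h, 80.0 against 852 at 48 h, and 82.2, 89.1 and 72.1 against 495, 599 and 543 at 72 h. Its highest level on toyocamycin was at 24 and 48 h, not at the last time.

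JUN (chr1:58776845-58784048), the partner of FOS in AP-1, had 131 and 79.3 CPM on DMSO and 67.7 and 36.8 on toyocamycin at 2 h. It was 80.0 against 431 and 117 at 10 h, 289 against 936 at 24 h and 42.0 against 1441 at 48 h. At 72 h the DMSO libraries had 36.4, 31.5 and 19.4 and the toyocamycin libraries 1811, 2183 and 2012, a rise of 6.14 ± 0.31 (70.4-fold, adjusted p = 4.55e-11). JUN was the AP-1 subunit with the largest rise at 72 h in each scaling tried, and its vehicle level ranged 14.9-fold over the 8 DMSO libraries. Its fall at 2 h, by 1.0 ± 0.31 (adjusted p = 0.0645), was lost without replicate 1 of DMSO or replicate 2 of toyocamycin. JUNB (chr19:12791486-12793315), a JUN relative that restrains JUN at some promoters, went the other way at 2 h, with 287 and 138 CPM on DMSO and 438 and 286 on toyocamycin. That ratio of 0.77 ± 0.31 did not pass (adjusted p = 0.218) but did with the replicate block (0.83, adjusted p = 0.00568). JUNB was 191 against 3291 and 813 CPM at 10 h, 746 against 3120.5 at 24 h, 378 against 3184 at 48 h and 517, 454 and 293 against 3810.3, 4814 and 4210.4 at 72 h, where it rose by 3.38 ± 0.28 (adjusted p = 1.46e-08). JUNB shares exon bases with HOOK2 on the other strand, and whether the counting used strand is not given in the sources used here, which also touches CCN2, EGR3, ID2, IER2, IER3, KLF4, NR4A1 and ZFP36L2. JUND (chr19:18279694-18281622), the JUN protein of resting cells, differed more between replicates than between arms at 2 h, with 147 and 56.6 against 91.6 and 38.7 CPM. It was 39.4 against 105 and 18.1 at 10 h, 91.2 against 349 at 24 h, 73.1 against 593 at 48 h and 93.5, 91.9 and 52.1 against 216, 369 and 399 at 72 h. JUND rose at 72 h by 2.08 ± 0.37 (adjusted p = 6.97e-05).

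The EGR genes encode zinc finger factors that mitogens induce through SRF. EGR1 (chr5:138465479-138469303), whose promoter with its CArG boxes is printed above, was the EGR gene with the highest level per kilobase and did not pass at 2 h. It had 1164 and 711 CPM on DMSO and 961 and 810.2 on toyocamycin, a ratio of -0.08 ± 0.24 (adjusted p = 0.929). At 10 h it was 1032 against 5051 and 1444, at 24 h 1909.7 against 4964, and at 48 h 1226 against 7788. By 72 h EGR1 reached 5612, 8009 and 6696 CPM on toyocamycin with 737, 655 and 545 on DMSO, a rise of 3.42 ± 0.21 (adjusted p = 4.93e-10). EGR2 (chr10:62811996-62819167), low in the vehicle, had 6.73 and 5.35 CPM on DMSO against 7.29 and 6.39 at 2 h and 6.12 against 75 and 36.3 at 10 h. It was 13.1 against 46.7 at 24 h, 13.3 against 81.0 at 48 h and 4.46, 3.67 and 3.26 against 182, 198 and 173 at 72 h, a rise of 5.63 ± 0.17 (49.7-fold, adjusted p = 6.27e-13). EGR3 (chr8:22687659-22693480) was the EGR gene that fell at 2 h, from 64.5 and 57.3 to 23.9 and 21.1 CPM, by 1.44 ± 0.16 (adjusted p = 6.21e-05). It was 43.8 against 109 and 62.2 at 10 h, 87.9 against 80.1 at 24 h and 139.7 against 89.7 at 48 h, so that the arms lay within 2-fold at 24 and 48 h. EGR3 exceeded the vehicle at 72 h with 265, 331 and 286 against 49.8, 44 and 47.0 CPM, by 2.68 ± 0.13 (adjusted p = 4.71e-11). Its rise at 10 h, 0.97 ± 0.29, turned to -0.09 under the mitochondrial scaling.

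The NR4A genes encode orphan nuclear receptors that act without a known natural ligand. All 3 rose at 72 h by 6.44 to 7.73 on the log2 scale. NR4A1 (chr12:52022832-52059507) fell at 2 h from 124 and 79.7 to 47.8 and 30.1 CPM, by 1.39 ± 0.26 (adjusted p = 0.00333). It had 68.1 on DMSO against 548 and 111 on toyocamycin at 10 h, 252 against 5034 at 24 h and 188 against 10851 at 48 h. At 72 h NR4A1 stood at 21480.0, 29481 and 25966 CPM against 133, 133 and 103, a rise of 7.73 ± 0.28 (213-fold, adjusted p = 1.85e-12), and took 1.91% of the counts on average. NR4A2 (chr2:156324437-156342348) did not pass at 2 h, with 6.23 and 6.22 CPM on DMSO and 5.01 and 4.12 on toyocamycin (-0.44 ± 0.20, adjusted p = 0.29). It stood at 3.33 against 84.2 and 21.2 CPM at 10 h, 5.69 against 931 at 24 h, 6.5 against 1114 at 48 h and 4.06, 3.39 and 4.85 against 639, 688 and 584 at 72 h. The ratios of NR4A2 were 7.37 at 24 h, 7.45 at 48 h and 7.31 ± 0.18 at 72 h. NR4A3 (chr9:99821855-99866891), the least abundant, had 2.44 and 3.24 CPM on DMSO and 0.497 and 0.596 on toyocamycin at 2 h, the largest fall of the 34 genes (-2.37 ± 0.31, adjusted p = 0.000202). It was 2.11 against 5.85 and 3.87 at 10 h, 1.60 against 38.5 at 24 h, 1.40 against 76.6 at 48 h and 0.842, 0.743 and 1.29 against 86.0, 86.2 and 74.7 at 72 h. NR4A3 thus ended 6.44 ± 0.21 above a vehicle that had itself fallen by 1.54 since 2 h.

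The Krüppel-like factors split, with KLF4, KLF6 and KLF10 rising and KLF2 falling at 72 h. KLF4 (chr9:107484852-107490482), a factor of the differentiating colon epithelium, fell at 2 h from 327 and 223 to 153 and 107 CPM, by 1.08 ± 0.22 (adjusted p = 0.00611). It was 321 against 789 and 304 at 10 h, 517 against 1728 at 24 h, 538 against 819.9 at 48 h and 655, 737 and 599 against 1807, 2426 and 2231 at 72 h, where it rose by 1.73 ± 0.18 (adjusted p = 2.87e-07), a call lost on the mitochondrial scale (0.63, adjusted p = 0.178). KLF6 (chr10:3775996-3785281) and KLF10 (chr8:102648784-102655725), the latter induced by TGF-beta, did not pass at 2 h. KLF6 had 90.6 and 93.0 CPM on DMSO against 94.7 and 97.8 at 2 h, 94.4 against 616 and 352 at 10 h, 96.8 against 861 at 24 h, 65.2 against 839.7 at 48 h and 68.6, 76.4 and 82.3 against 3111, 3172 and 2619 at 72 h. Its vehicle level ranged 1.485-fold over all 8 DMSO libraries, the least of the 34 genes, and its rise was 2.36 ± 0.32 at 10 h and 5.32 ± 0.15 at 72 h. KLF10 had 89.6 and 87.3 against 119 and 104 CPM at 2 h, 82.1 against 1197 and 524 at 10 h, 143 against 1303 at 24 h, 108 against 1341 at 48 h and 90.1, 86.7 and 92.6 against 3101, 3093 and 2837 at 72 h. Both were within 0.34 of the vehicle at 2 h and roughly level between 24 and 48 h before a further step to 72 h. KLF2 (chr19:16324826-16328685), a factor of quiescent cells, had 66.5 and 30.8 against 48.4 and 21.5 CPM at 2 h and 33.7 against 84.0 and 14.6 at 10 h, with more spread between replicates than between arms. It was 51.3 against 48.3 at 24 h, 25 against 9.76 at 48 h and 26.5, 29.5 and 17.1 against 1.97, 6.86 and 4.61 at 72 h. KLF2 fell at 72 h by 2.40 ± 0.41 (adjusted p = 5.70e-05).

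SRF (chr6:43171269-43181506), the factor that binds CArG boxes and drives FOS and EGR genes, had small fold changes at 2 and 72 h. It had 92.7 and 80.2 CPM on DMSO and 87.0 and 76.1 on toyocamycin at 2 h, and 73.3 against 185 and 89.0 at 10 h. The single libraries of 24 and 48 h held 95.0 against 395 and 134 against 367 CPM, and those of 72 h 154, 132 and 109.6 against 179, 213 and 244. SRF rose by 0.72 ± 0.15 at 72 h (adjusted p = 0.000418), which the mitochondrial scaling turned to -0.40, and its rise of 0.90 at 10 h to -0.13.

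The IER genes are small stress and mitogen response genes. IER3 (chr6:30743199-30744548), which modulates apoptosis, was the gene that rose at 2 h, from 316 and 131 CPM on DMSO to 562 and 387, by 1.09 ± 0.31 (adjusted p = 0.0472). It was 118 against 7236 and 973 at 10 h, 326 against 7499 at 24 h and 609 against 6988 at 48 h. At 72 h IER3 held 13186, 17076 and 15076 CPM on toyocamycin and 505, 517 and 402 on DMSO, a rise of 5.03 ± 0.30 (32.6-fold, adjusted p = 2.83e-10). The ratio at 10 h, 5.12 ± 0.94, was the largest of the 34 genes at that time, with replicate 1 of toyocamycin far above replicate 2. IER2 (chr19:13150411-13154911) stood at 84.5 and 51.7 against 69.3 and 67.1 CPM at 2 h, 54.9 against 304 and 101 at 10 h, 184 against 447 at 24 h, 98.2 against 586 at 48 h and 96.1, 97.4 and 88.4 against 921, 891 and 796 at 72 h. It did not pass at 2 h (0.00 ± 0.19) and rose by 3.24 ± 0.17 at 72 h (adjusted p = 7.18e-11). IER5 (chr1:181088700-181092900) had 454 and 233 against 295 and 173 CPM at 2 h, a ratio of -0.55 ± 0.28 that did not pass (adjusted p = 0.391) but did with the replicate block (-0.525, adjusted p = 0.0429), without replicate 2 of DMSO (-0.95, adjusted p = 0.0388) and without replicate 1 of toyocamycin (-0.99, adjusted p = 0.0961). It was 241 against 1065 and 356 at 10 h, 506 against 1549.9 at 24 h, 262 against 483 at 48 h and 534, 542 and 412 against 543, 685 and 611 at 72 h. IER5 peaked on toyocamycin at 24 h and ended near the vehicle (0.34 ± 0.23, adjusted p = 0.178), although its 3 toyocamycin libraries lay just above its DMSO libraries. It passed as a rise with DESeq2 size factors (0.66, adjusted p = 0.0159) and with the libraries of 72 h alone (0.44, adjusted p = 0.00626), and as a fall on the mitochondrial scale (-0.78, adjusted p = 0.096).

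The ZFP36 proteins bind AU-rich nonamers such as those printed above and speed the decay of the messenger RNA. ZFP36 (chr19:39406847-39409412) was, under the TMM scaling, the gene of the list with the smallest fold change at 72 h apart from IER5, and 6 genes were nearer to 0 than ZFP36 on the mitochondrial scale. It had 37.1 and 20.3 against 37.0 and 27.1 CPM at 2 h, 45.6 against 77.5 and 24.6 at 10 h, 170.0 against 33.9 at 24 h and 88.9 against 38.7 at 48 h. With 93.5, 80.4 and 72.7 against 87.6, 126 and 113 CPM at 72 h its arms overlapped, and the rise of 0.44 ± 0.20 (adjusted p = 0.0559) was lost without replicate 2 or 3 of either arm and reversed by library size (-0.17) and by the mitochondrial scaling (-0.69). ZFP36L1 (chr14:68787660-68796253) had 221 and 160.0 against 171 and 158 CPM at 2 h, 339 against 1917 and 728 at 10 h, 483 against 3462 at 24 h, 365 against 1916 at 48 h and 309, 326 and 274 against 3014, 4077 and 3529 at 72 h. It rose by 3.58 ± 0.17 at 72 h (adjusted p = 2.95e-11). ZFP36L2 (chr2:43222402-43226606) had 652 and 396 against 376 and 248 CPM at 2 h, a ratio of -0.75 ± 0.27 that passed with the replicate block (-0.73, adjusted p = 0.00737) but not without it (adjusted p = 0.135). It was 559 against 3737 and 886 at 10 h, 1006 against 6764 at 24 h, 627 against 4082 at 48 h and 550.1, 541 and 412 against 2890.4, 4469 and 3630.3 at 72 h, with its highest level on toyocamycin at 24 h and a rise of 2.90 ± 0.23 at 72 h. The fold changes of both relatives at 72 h thus lay well above that of ZFP36.

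BTG2 (chr1:203305491-203309602), an antiproliferative gene that p53 also induces, gave the smallest adjusted p of the list at 2 h. It stood at 29.0 and 28.5 CPM on DMSO and 5.55 and 5.74 on toyocamycin, a fall of 2.35 ± 0.16 (5.09-fold, adjusted p = 2.01e-06). The SD was 0.359 CPM on DMSO and 0.135 CPM on toyocamycin. It was 30.1 against 56.0 and 27.6 at 10 h, 38.4 against 289.8 at 24 h and 23.1 against 494 at 48 h. BTG2 reached 838, 815 and 727 CPM at 72 h against 35.5, 29.9 and 33.1 on DMSO, a rise of 4.63 ± 0.14 (24.7-fold, adjusted p = 5.41e-13). The difference between 72 and 2 h was 6.97 ± 0.22, and the vehicle moved by 0.19. DUSP1 (chr5:172768096-172771195), a phosphatase that switches off MAP kinases, was like FOS lower on toyocamycin at 2, 10 and 24 h. It had 20.8 and 14.1 CPM on DMSO and 5.26 and 3.85 on toyocamycin at 2 h, a fall of 1.93 ± 0.25 (adjusted p = 0.000198). At 10 h it was 27.8 against 9.92 and 4.20, at 24 h 53.6 against 33.9, at 48 h 23.9 against 33.9 and at 72 h 24.9, 21.0 and 15.6 against 36.8, 36.6 and 34.6. The rise at 72 h of 0.84 ± 0.19 (adjusted p = 0.000693) turned to -0.29 under the mitochondrial scaling, and the highest DUSP1 level of all libraries was the DMSO library of 24 h. DUSP2 (chr2:96143169-96145440) had 36.3 and 21.8 against 19.8 and 14.2 CPM at 2 h, a ratio of -0.77 ± 0.26 that passed with the replicate block (-0.75, adjusted p = 0.0215) and not without (adjusted p = 0.115). It was 25.4 against 45.9 and 8.51 at 10 h, 77.9 against 197 at 24 h, 75 against 178 at 48 h and 59.0, 53.8 and 35.7 against 111, 129 and 143 at 72 h, and rose by 1.40 ± 0.21 at the last time, a call lost on the mitochondrial scale (0.27, adjusted p = 0.583).

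CCN1 and CCN2 encode matricellular proteins that SRF and YAP induce. Neither passed at 2 h and both rose at 10 and at 72 h, the rise of CCN2 at 10 h being lost in some settings. CCN1 (chr1:85580761-85584589) had 77.1 and 47.8 CPM on DMSO against 70.8 and 61.9 at 2 h, 68.3 against 2437 and 559 at 10 h, 188 against 11370.0 at 24 h and 130.4 against 12341 at 48 h. At 72 h it reached 22964, 24035 and 22738 CPM against 159, 213 and 203, a rise of 6.96 ± 0.23 (124-fold, adjusted p = 9.99e-13). CCN2 (chr6:131948176-131951372) had 4.33 and 4.63 against 3.27 and 2.76 CPM at 2 h, 4.72 against 9.49 and 5.31 at 10 h, 8.84 against 42.6 at 24 h, 1.44 against 67.8 at 48 h and 3.67, 3.20 and 3.95 against 209, 237 and 209 at 72 h. Its rise at 10 h, 0.67 ± 0.30 (adjusted p = 0.0897), was lost with batch as a term (0.49, adjusted p = 0.15), by library size alone (0.18, adjusted p = 0.59) and without replicate 1 of toyocamycin (0.17, adjusted p = 0.638), and the mitochondrial scaling turned it to -0.40. CCN2 rose by 5.95 ± 0.16 at 72 h.

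The helix-loop-helix genes did not pass at 2 h, with fold changes from 0.01 to 0.21, and parted later. ID1 and ID3 encode inhibitors of differentiation that BMP signals induce. ID1 (chr20:31605283-31606515) had 96.1 and 45.4 CPM on DMSO and 93.3 and 57.5 on toyocamycin at 2 h, and 125 against 578 and 120.0 at 10 h, a rise of 1.48 that became -0.06 without replicate 1 of toyocamycin. It was 541 against 139 at 24 h, 266 against 25.4 at 48 h and 270.1, 295 and 246 against 31.0, 30.0 and 30.9 at 72 h, a fall of 3.11 ± 0.24 (adjusted p = 7.72e-09). ID3 (chr1:23557926-23559501) had 75.1 and 52.0 against 69.7 and 60.0 CPM at 2 h, 154 against 521 and 110.2 at 10 h, 366 against 127 at 24 h and 244 against 13.3 at 48 h. With 7.57, 4.82 and 5.82 against 199.8, 188 and 156 CPM at 72 h, ID3 had the largest fall of the list, 4.87 ± 0.20 (29.3-fold, adjusted p = 7.85e-12). ID2 (chr2:8678845-8684461), the third ID gene, did not share this fall, with 124 and 103 against 133 and 129 CPM at 2 h, 206 against 941 and 295 at 10 h, 329 against 655 at 24 h and 207 against 232 at 48 h. At 72 h it was 256, 282 and 293 against 698, 768 and 674 CPM, a rise of 1.40 ± 0.13 (adjusted p = 4.13e-08) that was lost on the mitochondrial scale (0.32, adjusted p = 0.514). HES1 (chr3:194136148-194138732), a target of Notch, had 103 and 53.4 against 95.5 and 61.8 CPM at 2 h, 86.9 against 411 and 81.6 at 10 h, 325 against 521 at 24 h, 181 against 378 at 48 h and 165, 156 and 151 against 974, 1169 and 994 at 72 h. HES1 rose by 2.77 ± 0.22 at 72 h, and its rise of 1.5 at 10 h became -0.09 without replicate 1 of toyocamycin.

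ARC (chr8:142611049-142614479), a gene best known from synapses that SRF also drives, had the widest swing. It fell at 2 h from 37.2 and 23.6 to 13.8 and 5.96 CPM, by 1.61 ± 0.34 (adjusted p = 0.00701). It was 6.33 on DMSO against 226 and 44.1 on toyocamycin at 10 h, 13.2 against 742 at 24 h and 25.1 against 3163 at 48 h. At 72 h it stood at 4972, 7315 and 7319 CPM against 15.3, 11.4 and 9.96, a rise of 9.10 ± 0.36 (548-fold, adjusted p = 4.99e-12), so that the difference between 72 and 2 h was 10.71 ± 0.51. The single libraries of 24 and 48 h lay between those of 10 and 72 h.

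**Figure D4:**
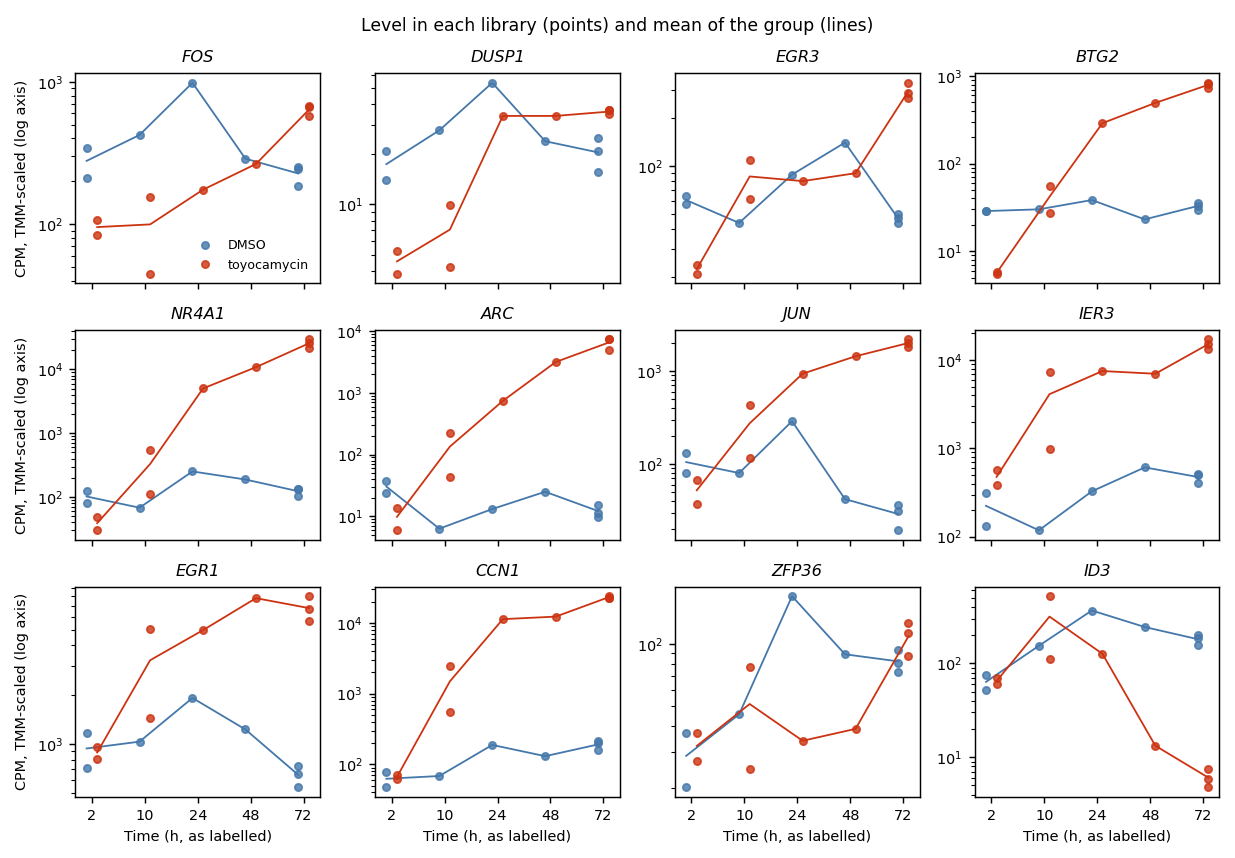
For 12 of the 34 genes, the level in each library (points, CPM, TMM-scaled, log axis) and the mean of each group (lines) are plotted by time (h, as labelled), with DMSO in blue and toyocamycin in red. FOS and DUSP1 on toyocamycin stay below the vehicle through 24 h, BTG2, NR4A1, ARC and JUN start below it and end above it, IER3 lies above it from 2 h on, and ID3 ends below it.

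Around these genes, 22 regulators upstream of them, such as the MAP kinases, the ternary complex factors and the RSK kinases, were counted as a list. At 2 h, 2 of the 22 passed, both lower, or 9.09% beside 8.42% of all genes. At an unadjusted p under 0.05, 6 were lower, and the share of all genes at that threshold was not counted. The 2 that passed were MRTFA, a coactivator of SRF (-1.04 ± 0.20, adjusted p = 0.00343), and the stress kinase p38, MAPK14 (-0.45 ± 0.14, adjusted p = 0.0724). At 10 h 11 fell and 3 rose, 50% and 13.6% beside 24.4% and 20.4% of all genes. At 72 h 13 fell and 4 rose, 59.1% and 18.2% beside 41.9% and 47.0%. The largest falls at 72 h were those of RPS6KA5 (-4.72 ± 0.31, adjusted p = 1.18e-09), MAPK3, which encodes ERK1 (-4.13 ± 0.18, adjusted p = 1.01e-11), RPS6KA1 (-3.75 ± 0.14, adjusted p = 3.10e-12) and MAPK9 (-3.32 ± 0.16, adjusted p = 2.69e-11). MAPK3 went from 45.9 ± 5.47 CPM on DMSO to 2.54 ± 0.454 (SD, n = 3) on toyocamycin. The median of the list was 0.01 at 2 h and -0.88 at 72 h, where the 34 immediate early genes stood at 2.92.

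Of 42 other genes of the early response to growth factors and stress, 40 were tested in the fit of 14 libraries. At 2 h 18 fell and 1 rose, 45% and 2.5% beside 8.42% and 0.518% of all genes. At 10 h 2 fell and 29 rose, 5% and 72.5% beside 24.4% and 20.4%, and at 72 h 2 fell and 37 rose, 5% and 92.5% beside 41.9% and 47.0%. The largest falls at 2 h were those of the clock gene PER1 (-2.49 ± 0.22, adjusted p = 1.03e-05), the kinase genes PLK2 (-2.15 ± 0.18, adjusted p = 1.03e-05) and SIK1 (-1.83 ± 0.42, adjusted p = 0.0124), and the phosphatase gene DUSP5 (-1.45 ± 0.21, adjusted p = 0.000358). The largest rises at 72 h were those of the stress factor ATF3 (9.85 ± 0.22, adjusted p = 1.14e-13), the GTPase gene GEM (7.81 ± 0.17, adjusted p = 1.14e-13), GADD45B (7.64 ± 0.26, adjusted p = 1.32e-12) and CITED2 (6.23 ± 0.20, adjusted p = 9.99e-13). ATF3 went from 2.28 ± 0.304 CPM on DMSO to 2068 ± 189 on toyocamycin (SD, n = 3 per arm). Their median was -0.56 at 2 h and 3.5 at 72 h, where the 34 genes had -0.49 and 2.92.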

How the data were processed

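PolyA RNA of YB5 cells was sequenced from both ends in 17 libraries. Reads were mapped on GRCh38 by STAR 2.7.5a, and the authors deposited raw counts per gene for 19141 genes, of which 19080 were matched to a symbol of GENCODE 44. The strand setting of the counting is not given in the sources used here. The authors' table of edgeR fold changes and p-values was not used. One further column of the count table, 1 in all, matches no sample and was not analysed here.

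Libraries were grouped by their labels. Counts were filtered with filterByExpr, scaled by TMM and tested with edgeR 4.0.16 (R 4.3.3, quasi-likelihood test in its earlier form, Benjamini-Hochberg adjusted p under 0.1), with DESeq2 1.42.0 as an alternative. A fit of 14 libraries, without those of 10 h, covered 14491 genes and gave the results at 2, 24, 48 and 72 h, the difference of the effects at 72 and 2 h, and DMSO at 72 h against 2 h. A fit of all 17 covered 16521 genes and gave 10 h. Genes past 2-fold were counted, without a test, where an arm had 1 library (24 and 48 h). Printed CPM used the TMM factors of all 17 libraries.

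At 2 h, replicates 1 and 2 are also batches 1 and 2, so their numbers pair the arms (correlation of deviations 0.307, across genes), whereas at 72 h it was -0.11, 0.04 and -0.09. A gene at no more than 3 counts in an arm would have been at the floor, and no immediate early gene was. Counting error shrinks with depth, from 8735465 to 22121364 counts per library.

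The 34 genes and both further lists were chosen with earlier results of these data known. Every library is given for members called at 2 h, at 72 h or in the difference with an average log2 CPM of at least 2, which held for all 34, and up to 4 genes of each further list were named by size among those called with no overlap between arms. Alternatives were 2 other scalings plus library size alone, the DESeq2 Wald test, edgeR's newer form, other filters and thresholds, a replicate block, a batch term, other sets of libraries and each library left out. Figures used matplotlib.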

Additional observations from a re-analysis of the deposited data

Results flagged for a closer look

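The effect of toyocamycin differed between 2 and 72 h for 33 of the 34 immediate early genes in edgeR's test of the difference itself (adjusted p under 0.1, n = 2 and 3 per arm). The values that follow are log2 differences, the effect at 72 h minus that at 2 h. Among the AP-1 genes they were 3.06 for FOS, 3.66 for FOSB, 2.76 for FOSL1, 3.54 for FOSL2, 7.14 for JUN, 2.60 for JUNB and 2.73 for JUND. For the EGR genes they were 3.51 for EGR1, 5.46 for EGR2 and 4.12 for EGR3. The NR4A genes gave 9.12 for NR4A1, 7.75 for NR4A2 and 8.80 for NR4A3. KLF4 had 2.81, KLF6 5.25 and KLF10 4.76, while KLF2 had -1.92. SRF gave 0.80, IER2 3.24, IER3 3.94 and IER5 0.89. ZFP36L1 gave 3.79 and ZFP36L2 3.65. BTG2 had 6.97, DUSP1 2.77 and DUSP2 2.17. CCN1 had 6.87 and CCN2 6.51. HES1 had 2.76 and ID2 1.19, against -3.20 for ID1 and -4.90 for ID3. ARC had 10.71, the largest of the list. The difference of IER5 was lost without replicate 1 of DMSO (0.33) or replicate 2 of toyocamycin (0.58) at 2 h, by library size alone (0.35) and in the fit of all 17 libraries (0.86, adjusted p = 0.178). That of SRF was lost by library size alone (0.26). On the mitochondrial scale those of ID2 (0.31, adjusted p = 0.757), DUSP2 (1.28, adjusted p = 0.111), IER5 (0.026) and SRF (-0.15) were lost.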

How the results depend on the processing

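Over 26 settings, 221 of 278 counts and medians stayed within 1.5 times or the replicate spread of their value, 54 moved and 3 reversed. Of 2346 values of single genes, 93 lost their call, 52 gained 1, and 14 reversed in sign with a call in either fit. A change of threshold alone leaves the fold changes as they were and cannot reverse them. The cause of these changes was not tested. The shares of all genes at 24 and 48 h were counted for the main fit alone. On the mitochondrially encoded genes, which moved the median of all genes at 72 h to -0.89, 3 genes fell and 0 rose at 2 h by edgeR, 8 rose at 10 h with a median of 0.575, 10 were past 2-fold lower and 7 higher at 24 h with a median of -0.38, 10 lower and 14 higher at 48 h with a median of 0.77, the medians were 1.81 at 72 h and 2.63 for the difference, and in DMSO 1 fell with a median of 0.86. EGR3 (-0.085), SRF (-0.13) and CCN2 (-0.40) reversed at 10 h, SRF (-0.40), ZFP36 (-0.69), DUSP1 (-0.29) and IER5 (-0.78) at 72 h, and SRF in the difference (-0.15). By library size alone (median of all genes at 72 h -0.42) the median was 0.99 (10 h), 0.88 (24 h), 2.00 (48 h), then 2.32 on the last day and 2.98 in the difference, 8 genes were lower and 16 higher at 24 h, and ZFP36 reversed at 72 h (-0.17). Over all genes, 1220 fell and 75 rose at 2 h, against 87 and 12 on the mitochondrial scale, 1420 and 122 with the block, 812 and 29 in the fit of all 17, and 738 and 17 with the libraries of 2 h alone. The split of all genes into higher and lower was 4258 and 3370 at 10 h with DESeq2 size factors and 1872 and 5676 by library size, and in DMSO 936 and 2644 by library size and 563 and 36 on the mitochondrial scale, against 1482 and 1645. For the difference it was 2810 and 5862 on that scale against 5506 and 5523. With DESeq2 size factors (median of all genes at 72 h 0.50) the medians were 2.85, 3.245 and 3.82 at 48 h, at 72 h and for the difference. The DESeq2 Wald test gave 3.245 and 3.82 for the last 2. It called 2 genes higher at 2 h, 5.88% beside 0.614% of all genes.

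With no filter 2 genes rose at 2 h, 5.88% beside 0.434% of all genes. With at least 10 counts in every library the medians were 2.86, 3.205 and 3.79 at 48 h, at 72 h and for the difference. A minimum fold of 1.5 left 7 lower and 0 higher at 2 h, 20.6% and 0% beside 2.53% and 0.117% of all genes. The replicate block gave 2 higher at 2 h, and beyond the genes named in the report it changed 1 call, IER5 at 72 h (adjusted p = 0.019), where the numbers do not pair the libraries. A batch term gave 2 higher at 2 h, 5.88% beside 0.375% of all genes, and a median of 0.89 at 10 h. In DMSO it gave 7 higher, 20.6% beside 6.6%, with a median of -0.067. The fit of all 17 libraries gave 5 lower and 0 higher at 2 h, 14.7% and 0% beside 4.91% and 0.176%. In DMSO it gave 3 lower and 7 higher, 8.82% and 20.6% beside 5.56% and 5.41%. With the libraries of 2 h alone 0 rose, beside 0.143% of all genes.

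With each library left out in turn, the medians at 2 h ran from -0.69 to 0.015. The highest median came without replicate 1 of DMSO and the next, -0.19, without replicate 2 of toyocamycin. All these fits at 2 h were unbalanced by batch. At 10 h 2 to 6 fell and 15 to 31 rose, with medians from 0.51 to 2.21, and without replicate 1 of toyocamycin ID1 (-0.057) and HES1 (-0.092) reversed, against 2.21 and 2.247 without the other, as did KLF2 (-1.21), ZFP36 (-0.89) and DUSP2 (-1.58), against 1.32, 0.77 and 0.86. At 72 h 3 fell and 29 to 30 rose, with medians from 2.80 to 3.05. The shares were 8.82% and 85.3% to 88.2%, beside 41.0% to 41.5% and 45.2% to 46.7% of all genes. For the difference the medians ran from 3.14 to 3.70. Without a library of 72 h, 3 fell and 30 rose in it, 8.82% and 88.2% beside 37.4% to 38.1% and 36.9% to 38.0%. In DMSO the medians ran from 0.059 to 0.51. Without a DMSO library of 72 h, 5 to 6 fell and 10 to 14 rose. Those shares were 14.7% to 17.6% and 29.4% to 41.2%, beside 6.38% to 10.7% and 6.79% to 9.9% of all genes. Depth was lowest at 10 h, and 24 and 48 h had no replicate.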

Other observations

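In the vehicle alone the immediate early genes were not equally steady. Over the 8 DMSO libraries of all times, the highest level divided by the lowest was 14.9 for JUN, 11.9 for ID1, 11.3 for FOSL1 and 8.39 for ZFP36, and 1.485 for KLF6, 1.66 for BTG2 and 1.74 for KLF10. FOS ranged from 187 to 983 CPM with a median of 269.7, and ARC from 6.33 to 37.2 CPM with a median of 14.2. The lowest toyocamycin library of 72 h had 4972 CPM of ARC.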
